A study of Mus musculus with 4 samples.

Results

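The cells described here are mesenchymal cells of the mouse embryonic submandibular gland that carried RNA of Foxf1, a forkhead transcription factor. They were chosen by measured values, as barcodes of the submandibular mesenchyme library with at least 500 genes, at most 10% mitochondrial UMIs, a Pdgfra plus Col3a1 sum of at least 2 UMIs, at least 1 Foxf1 UMI and no Cdh5 UMI. A UMI (unique molecular identifier) marks 1 captured RNA molecule. Pdgfra encodes a platelet-derived growth factor receptor of mesenchyme, Col3a1 a fibrillar collagen, and Cdh5 the cadherin of endothelial junctions. The rule kept 234 cells of the 15351 barcodes in the series, and they were set against the 3398 cells of the same library that met the same conditions with no Foxf1 UMI. Foxf1 therefore differs between the sets by construction, and its level is given only as a description.

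Submandibular and parotid glands came from ICR mouse embryos at embryonic day 12, with approximately 10 glands of each kind pooled and no other treatment or genotype named in the labels. Epithelium and mesenchyme were loosened from each other with Dispase II, dissociated in a cold protease mixture and captured on a droplet system, giving 4 libraries, 1 for each gland and tissue. Both sets of cells come from a single library, so no value here has a replicate and no test between the sets was made. Intervals are 95% intervals and cover counting error only: they do not hold the variation between embryos, which were pooled, and cells are not replicates.

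Foxf1 is known as a target of hedgehog signalling in the mesenchyme that surrounds the foregut and its derivatives, where it acts in the exchange of signals with the epithelium, and it also acts in endothelium. The long noncoding RNA gene Fendrr starts next to it on the other strand. Frzb is known as a secreted inhibitor of WNT signalling, and Pax9 as a transcription factor of pharyngeal and craniofacial mesenchyme. In the GRCm38 annotation Foxf1 (ENSMUSG00000042812) lies on the plus strand at chr8:121084386-121088144 and Fendrr on the minus strand at chr8:121054882-121083110. The windows below run from 250 bases before to 50 bases after a start annotated in RefSeq on GRCm38.p6. They are shown for Fendrr because it is the neighbour transcribed away from Foxf1, for Frzb and Pax9 because they had the 2 highest ratios among the genes named by size, and for Tspan8 because its window held a forkhead motif. The Pax9 and Tspan8 windows lie inside the GENCODE spans of those genes, chr12:56691767-56712822 and chr10:115816832-115849893, and so not at their outermost starts. Capitals mark GTAAACA or its reverse complement TGTTTAC, searched on both strands.
Fendrr, chr8:121083061-121083360, minus strand: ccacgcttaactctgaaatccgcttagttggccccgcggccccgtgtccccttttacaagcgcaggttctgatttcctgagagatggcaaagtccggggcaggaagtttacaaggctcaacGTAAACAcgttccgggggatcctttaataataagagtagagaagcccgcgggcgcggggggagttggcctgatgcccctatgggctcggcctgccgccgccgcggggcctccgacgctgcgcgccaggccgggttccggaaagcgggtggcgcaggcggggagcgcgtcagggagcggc
Frzb, chr2:80447347-80447646, minus strand: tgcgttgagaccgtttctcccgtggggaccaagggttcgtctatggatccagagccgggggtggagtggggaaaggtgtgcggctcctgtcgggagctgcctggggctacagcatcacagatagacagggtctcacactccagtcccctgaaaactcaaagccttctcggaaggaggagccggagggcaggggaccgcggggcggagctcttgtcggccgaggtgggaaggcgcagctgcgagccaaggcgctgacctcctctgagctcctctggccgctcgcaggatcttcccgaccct
Pax9, chr12:56695221-56695520, plus strand: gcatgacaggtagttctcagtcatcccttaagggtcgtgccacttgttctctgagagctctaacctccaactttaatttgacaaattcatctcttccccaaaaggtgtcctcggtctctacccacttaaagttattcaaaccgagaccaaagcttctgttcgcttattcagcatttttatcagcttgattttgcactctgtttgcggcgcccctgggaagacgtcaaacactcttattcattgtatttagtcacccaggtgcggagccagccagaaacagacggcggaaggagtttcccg
Tspan8, chr10:115817034-115817333, plus strand: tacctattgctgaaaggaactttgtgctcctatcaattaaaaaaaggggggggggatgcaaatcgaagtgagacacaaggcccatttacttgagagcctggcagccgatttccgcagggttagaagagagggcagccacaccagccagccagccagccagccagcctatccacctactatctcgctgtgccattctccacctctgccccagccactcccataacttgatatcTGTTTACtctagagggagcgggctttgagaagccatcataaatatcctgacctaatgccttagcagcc
Of 28 genes looked up, 20 had a window. The 24 genes named by ratio had windows for 18 of them, 24 windows in all with alternative starts, of which 1 held the forkhead motif, that of Tspan8, against 1197 of all 32817 windows (3.65%). The GLI motif TGGGTGGTC, searched on both strands, was in 0 of those 24 and in 83 of all windows (0.253%). A match is a run of letters and not a shown binding site.

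Nearly all Foxf1 UMIs of the series were in the submandibular mesenchyme library. That library held 4971 barcodes with 518 Foxf1 UMIs in 364 of them. The parotid mesenchyme library held 4488 barcodes with 5 Foxf1 UMIs, the submandibular epithelium library 3896 with 4, and the parotid epithelium library 1996 with 1. Median depth did not favour the submandibular mesenchyme, at 5493 UMIs per barcode against 5719, 9373 and 6662.5. Under the same rule, 3 of 3540 parotid mesenchyme cells qualified (0.0847%, Clopper-Pearson 0.0175 to 0.247), against 234 of 3632 submandibular cells (6.44%, 5.67 to 7.29). In the epithelium libraries few cells met the gate: 2 of 21 carried Foxf1 in the submandibular one (9.52%, 1.17 to 30.4) and 0 of 10 in the parotid one, which allows a share of up to 30.0%. When each cell was thinned to 3000 UMIs, the submandibular share was 3.68% (3.08 to 4.35, 130 of 3536 cells, with 96 shallower cells left out). With 1 library of each tissue, gland and library cannot be told apart.

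All 364 Foxf1-carrying barcodes of the library can be placed. Outside the rule were 1 that failed the quality limits, 69 with neither Pdgfra nor Col3a1, 57 with a sum of 1, and 3 inside the limit that carried Cdh5. Just inside the limit, 54 of the 234 members had a sum of exactly 2. Of the members, 178 had a single Foxf1 UMI, 40 had 2 and 16 had 3 or more, with a maximum of 9. The rule thus left out many Foxf1-carrying cells with little Pdgfra and Col3a1 RNA, and these serve further on as cells that the rule did not use.

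The rule itself required Pdgfra or Col3a1, so these do not check the label of mesenchyme. By clusters, 225 members (96.2%) lay in mesenchymal-like ones, beside 93.7% of the Foxf1-zero cells. Another 4 lay in a chondrogenic-like cluster, 2 in a skeletal-muscle-like cluster and 1 each in erythroid-like, macrophage-like and unnamed clusters. Of 9 endothelial markers, 6 were detected in the members, with Kdr and Tie1 at 0 besides Cdh5, which the rule required to be 0. Of 9 epithelial markers, 4 were detected, at a sum of 25.8 CPM (counts per 1000000 UMIs of the set) against 21.7 CPM in Foxf1-zero cells, with Cdh1, Krt14, Krt5, Cldn6 and Esrp1 at 0. Krt14, Krt5 and Esrp1 were at 0 in the Foxf1-zero cells too. Of 10 smooth muscle and pericyte markers, 8 were detected, at 66.0 against 74.7 CPM, with Myh11 and Rgs5 at 0. Summed over 9 endothelial markers, the level was 32.4 CPM in Foxf1-positive and 41.6 in Foxf1-zero cells. The sum of 7 chondrogenic markers was 148 against 74.5 CPM, and that of 7 erythroid markers 3229 against 7688 CPM. The 8 macrophage markers summed to 49.2 against 10.2 CPM, with Ptprc at 0 and 1 member in the macrophage-like cluster.

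Among the marker-named classes of the library, Foxf1 was detected most often in the 56 chondrogenic-like cells, at 23.2% (13.0 to 36.4, median 6101 UMIs). It was detected in 8.28% of 4069 mesenchymal-like cells (7.45 to 9.17, median 5305 UMIs). In classes not known for Foxf1, it was in 2 of 130 skeletal-muscle-like cells (1.54%, 0.187 to 5.45) and 2 of 146 neural-crest-like cells (1.37%, 0.166 to 4.86). Their medians were deeper, at 12967 and 10228 UMIs. Whether these UMIs came from free RNA, doublets or the cells themselves was not tested. The endothelial-like class, a known site of Foxf1 in other organs, had 4 of 139 cells (2.88%, 0.790 to 7.20, median 7866 UMIs). That interval overlaps those of both classes. Members were also deeper than the cells they were compared with, with a median of 6565 against 5288.5 UMIs and 2462 against 2183.5 genes. The part of depth in the values was examined by thinning and by comparison within bins of UMI depth. Thinning evens the UMIs per cell, but members were still chosen by a Foxf1 UMI at full depth. Within the bins fewer genes passed the size rule used below, in both directions.

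The cells were not spread evenly through the mesenchyme. Of 10 mesenchymal-like clusters, made without Foxf1 among the genes, 5 had Foxf1 in at least 9% of their gated cells and together held 203 of the 234 members (86.8%) in 1384 gated cells (14.7%). The highest share was in cluster 14, whose leading genes were Cited1, Foxf1, Frzb, Mpped2, Pax9 and Lgi1, with 61 of 177 gated cells (34.5%, 27.5 to 42.0; thinned 21.97%). Cluster 11, led by Ebf1, Prokr2 and Slc1a3, had 44 of 340 (12.9%), and cluster 1, led by Clu, Tspan8 and Lum, had 39 of 303 (12.9%). Cluster 0, led by DNA replication genes such as Ccne2, Tk1 and Rrm2, had 12.1%, and cluster 8, led by mitotic genes such as Nusap1 and Ube2c, had 9.91%.

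At the other end, 3 large clusters had almost none. In cluster 4, led by Fmo1, Usp53, Matn2 and Syndig1, 1 of 928 gated cells carried Foxf1 (0.108%). Cluster 10, led by Tmem100, Ebf2 and Sfrp2, had 1 of 265, and cluster 7 had 0 of 189, which allows a share of up to 1.59%. Together these clusters had 2 of 1382 cells (0.145%, 0.0175 to 0.522). Their median depths of 4359 to 5990.5 UMIs lay below and partly inside the range of 5763 to 7602 UMIs of the 5 clusters rich in Foxf1, and the thinned shares kept the same gap, at 0.114% in cluster 4 against 21.97% in cluster 14.

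**Figure D1:**
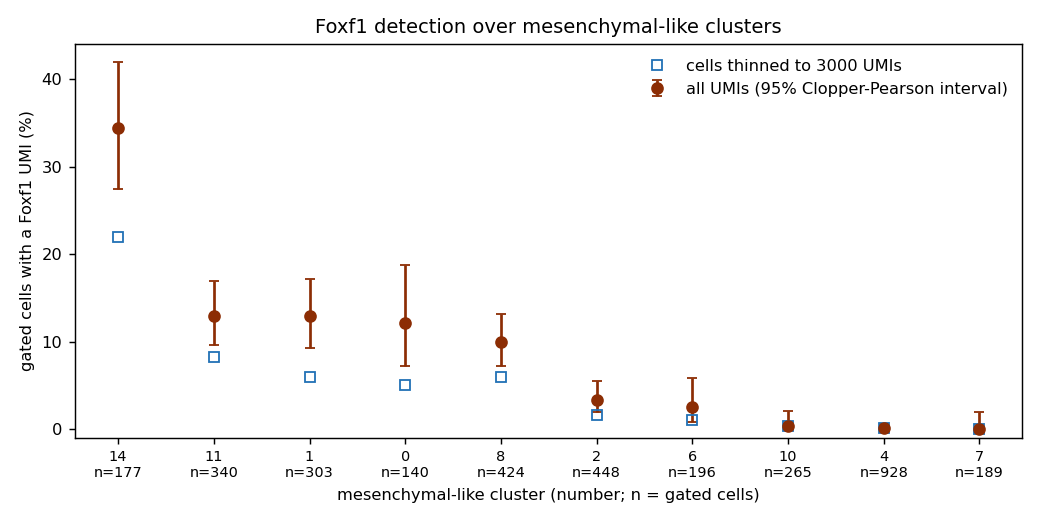
Percent of gated cells with a Foxf1 UMI in each of the 10 mesenchymal-like clusters of the submandibular mesenchyme library, with 95% Clopper-Pearson intervals (filled points) and after thinning each cell to 3000 UMIs (open squares). Cluster 14 stands highest at 34.5%, and clusters 4, 7 and 10 lie below 1%.

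Among the mesenchymal-like clusters, cluster 14 was the one the gate cut most. Only 177 of its 368 cells (48.1%) reached a Pdgfra plus Col3a1 sum of 2, and its Col3a1 level was 149 CPM, against 506 to 1582 CPM in the other mesenchymal-like clusters. Outside the gate, 58 of its 189 cells without Cdh5 (30.7%) carried Foxf1. Within the gate, Col3a1, which the rule used, was at 539.6 CPM in Foxf1-positive and 948 CPM in Foxf1-zero cells, and Pdgfra at 223 and 184 CPM.

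Frzb, Pax9, Mpped2, Tspan8, Lhx8 and Lgr5 led the genes that were higher in Foxf1-positive cells. Syndig1, Tmem100, Ntrk2, Maf, Cxcl13, Dcn and Tgfb2 were among those that were lowest against Foxf1-zero cells. A gene was counted when it reached 50 CPM in the higher set and differed at least 1.5-fold. Of 3203 genes tested, 91 were higher (2.84%) and 104 lower (3.25%), 7 of the latter being haemoglobin genes. The counting intervals of all 91 and all 104 left out a ratio of 1, and they say nothing of other embryos. Since Foxf1 itself divides the sets, these counts describe the cells that carried it.

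Frzb was at 108 CPM in Foxf1-positive cells and 14.4 CPM in Foxf1-zero cells, a 7.50-fold ratio (6.19 to 9.06), with 15.6 CPM in gated parotid mesenchyme. After thinning, it was detected in 22.4% of Foxf1-positive and 2.94% of Foxf1-zero cells. For comparison, it was in 0 of 129 skeletal-muscle-like cells thinned the same way, which allows a share of up to 2.33%. Their median was 12973 UMIs before thinning. Pax9, Tspan8 and Lhx8 were in 0 of them too, whereas Mpped2 was in 11.6% and Pik3r1 in 10.1%. In thinned Foxf1-zero cells Mpped2 was in 8.14% and Pik3r1 in 8.75%. Pax9 was at 85.2 against 11.8 CPM, a 7.20-fold ratio (5.81 to 8.90), with 40.4 CPM in parotid mesenchyme. Frzb was thus close to equal in both comparison populations, whereas Pax9 in parotid mesenchyme lay between the submandibular sets.

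Lgr5, a receptor for R-spondins that marks WNT-responsive cells in several epithelia, was at 112 against 31.0 CPM (3.60-fold, 3.04 to 4.24) and at 9.77 CPM in parotid mesenchyme. Tspan8, a tetraspanin, was at 70.8 against 17.6 CPM (4.02-fold) and was nearly undetected in parotid mesenchyme, at 0.178 CPM. Lhx8, a LIM homeobox factor of the first arch, differed from both in the parotid: it was at 56.4 against 15.1 CPM in the submandibular sets (3.73-fold) and at 303 CPM in parotid mesenchyme. The levels in the other gland thus ranged from almost none to well above those of the Foxf1-carrying cells.

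The rest of the leading group was Mpped2 (4.09-fold), Cited1, a transcriptional coregulator (3.25-fold), Slc1a3, a glutamate transporter (3.09-fold), Bmp4 (2.99-fold, 2.41 to 3.67), Pik3r1 (2.74-fold), Slit2, a secreted guidance cue (2.72-fold), and Tmtc4 (2.57-fold). Cited1 and Slc1a3 are also leading genes of clusters 14 and 11. The 102 Cited1 UMIs of the members came from 31 cells, with 22 in 1 cell. Of 99 Slc1a3 UMIs, 64 came from the 44 members of cluster 11. Detection of the leading genes varied from cell to cell. Of the 6 genes from Frzb to Lgr5, 31 of 234 members (13.2%) had none detected, 12 had 5 and no member had all 6. After thinning, 32.3% of members and 81.6% of Foxf1-zero cells had none of them. At these levels a single cell yields few UMIs of each gene, so a gene not detected in a cell may still be expressed there.

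**Figure D2:**
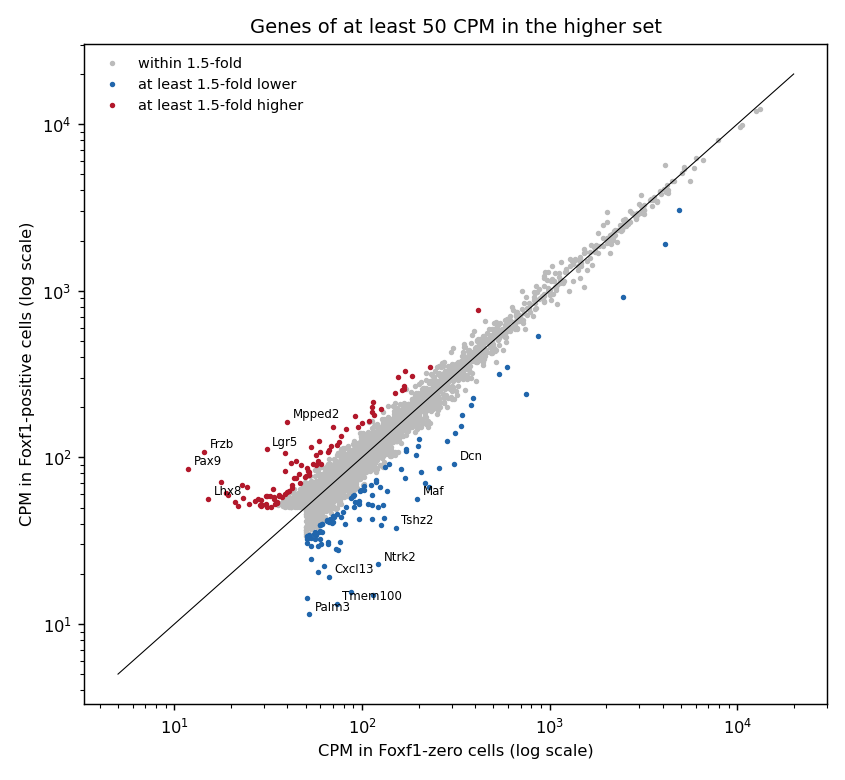
Level of each of 3203 genes in Foxf1-zero cells (x axis, CPM, log scale) and Foxf1-positive cells (y axis, CPM, log scale). The line marks equal levels, red and blue points are the 91 higher and 104 lower genes, and 12 of the leading genes are named.

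Among the lower genes, Maf, a basic leucine zipper transcription factor, was at 56.4 CPM in Foxf1-positive and 197 CPM in Foxf1-zero cells (0.286-fold, 0.231 to 0.351), and at 0.933 CPM in parotid mesenchyme. Dcn, the proteoglycan decorin, was at 91.2 against 311 CPM (0.294-fold, 0.248 to 0.345) and at 559 CPM in parotid mesenchyme. Ntrk2, a receptor for brain-derived neurotrophic factor, was at 22.8 against 122 CPM (0.187-fold), and Tgfb2, a TGF-beta ligand, at 70.2 against 217 CPM (0.324-fold). Maf was thus a submandibular gene that the Foxf1-carrying cells had less of, and Dcn a gene common to both glands.

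Tshz2, a zinc finger factor, was at 37.8 against 151 CPM (0.250-fold), and the chemokine gene Cxcl13 at 19.2 against 66.4 CPM (0.289-fold). Syndig1 (0.179-fold), Tmem100 (0.181-fold), Palm3 (0.218-fold), Usp53 (0.283-fold), Sepp1 (0.292-fold) and Egfl6 (0.309-fold) completed the group. Usp53, Syndig1, Tshz2 and Dcn led cluster 4, and Tmem100 led cluster 10, both nearly free of Foxf1. Detection after thinning showed the same order as the levels, with Dcn in 14.2% of members and 46.0% of Foxf1-zero cells, and Maf in 14.2% and 41.6%. In the thinned skeletal-muscle-like cells the same genes were in 1 and 3 of 129. Other lower genes were common in other classes. Tgfb2 was in 11.6% of skeletal-muscle-like and 27.5% of neural-crest-like cells, against 12.1% of members. Sepp1 was in 56.3% of endothelial-like cells, against 16.4% of members.

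Cells outside the gate allowed the same genes to be read in cells that were not members, and part of the differences were there too. In the mesenchymal-like clusters, 109 cells with Foxf1 and 526 without it had a Pdgfra plus Col3a1 sum of 0 or 1, no Cdh5 and median depths of 6028 and 4924.5 UMIs. Of the 91 higher genes, 77 had a ratio above 1 there, and 33 passed 1.5-fold. Of the 104 lower genes, 95 had a ratio below 1 and 65 passed 1.5-fold. Over all 3203 genes, 50.9% had a ratio above 1, 2.62% passed 1.5-fold upward and 5.15% passed it downward. The ratio was 2.99 for Frzb (2.25 to 3.97), 2.83 for Pax9 (2.03 to 3.94), 0.207 for Maf (0.114 to 0.347) and 0.292 for Dcn (0.148 to 0.524). All 24 genes named by ratio kept their direction, but for 3 of them the counting interval held 1: Pik3r1 (1.26, 0.9503 to 1.66), Slc1a3 (1.38, 0.714 to 2.54) and Usp53 (0.471, 0.181 to 1.03). Cluster 14, whose leading genes include Cited1, Frzb, Mpped2, Pax9 and Lhx8, held 58 of the 109 Foxf1-carrying cells outside the gate. The mix of clusters was not held equal in this comparison. The cells outside the gate come from the same library and embryos, so they are no replicate.

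**Figure D3:**
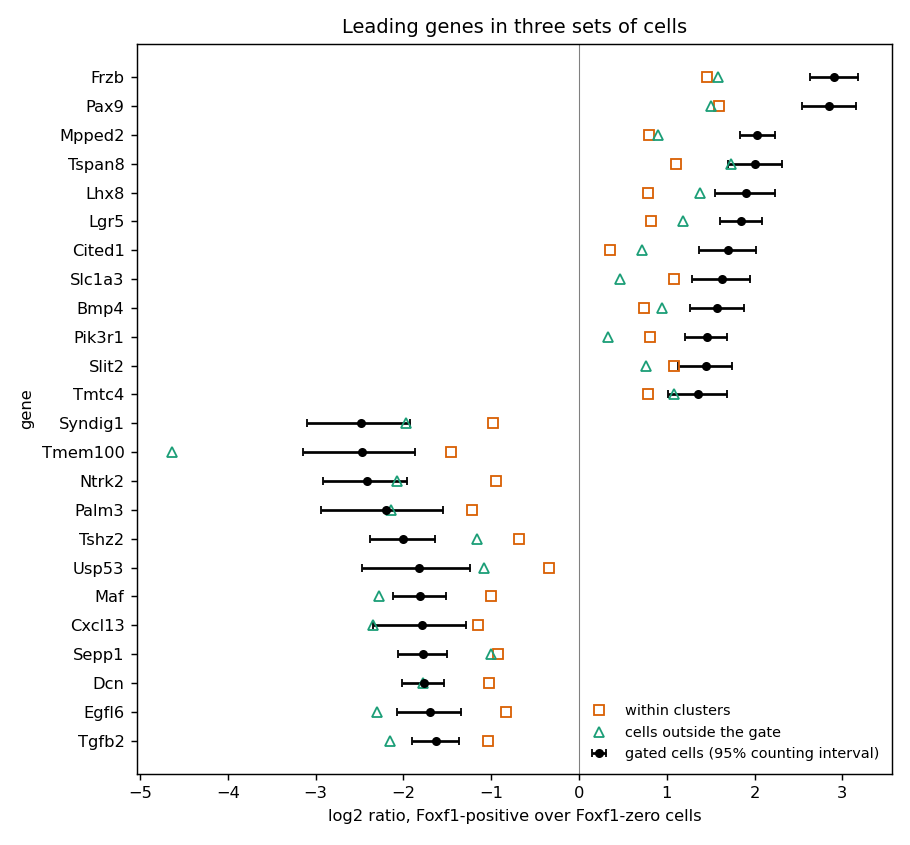
Log2 ratio of Foxf1-positive over Foxf1-zero cells for the 12 highest and 12 lowest named genes, in gated cells with 95% counting intervals (black), within clusters (orange squares) and in cells outside the gate (green triangles). Every gene stays on its side of 0, and every square lies closer to 0 than its black point.

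The contrast was smaller within clusters. When each Foxf1-positive cell was compared with the Foxf1-zero cells of its own cluster, 27 genes were higher and 26 lower, of which 26 and 24 were among the genes counted above. Frzb had a log2 ratio of 1.45 and Pax9 1.59 in that comparison, the 2 highest, whereas Cited1 went from 1.70 to 0.35 and Usp53 from -1.82 to -0.35, the 2 of the 24 genes named by ratio that no longer reached 1.5-fold. Within cluster 14, Frzb was at 194 CPM in the Foxf1-positive and 84.5 CPM in the Foxf1-zero cells, and Dcn at 10.4 and 41.6 CPM. In the same cluster Cited1 was at 153 and 159 CPM and Lhx8 at 67.3 and 66.5 CPM. Slc1a3 was at 18.1 and 37.4 CPM, the other way round from all gated cells, but from only 7 and 27 UMIs. The Dcn levels in this cluster rest on 4 and 30 UMIs, and no intervals were taken within clusters.

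Some levels were ordered by the number of Foxf1 UMIs in a cell, the value that divided the sets. Over 0, 1, 2 and 3 or more UMIs, 4 of the 12 highest genes by ratio had a level that was higher at each step, and 5 of the 12 lowest one that was lower at each step. The first step was largely set in advance, since these genes were picked by their ratio to the cells with 0. The share of all genes ordered in this way was not taken, so these counts have no baseline. Frzb was at 14.4 CPM in cells with 0 Foxf1 UMIs, 86.3 with 1, 144 with 2 and 254 with 3 or more. Pax9 was at 11.8, 73.6, 98.4 and 178 CPM in the same order, and Lgr5 at 31.0, 103, 112 and 203 CPM. Dcn went the other way, at 311, 111, 31.6 and 25.4 CPM, as did Tshz2, at 151, 42.7, 24.6 and 16.9 CPM. Other genes showed no such order: Bmp4 was at 22.9, 74.4, 56.2 and 33.9 CPM, Cited1 at 18.8, 59.4, 84.3 and 25.4 CPM, and Sepp1, a lower gene, at 228, 68.1, 42.2 and 110.0 CPM. The last intervals were wide for Bmp4 (9.22 to 86.7) and Cited1 (5.24 to 74.2). In thinned cells Bmp4 was at 20.9, 67.8, 59.8 and 83.3 CPM. Neighbouring groups were not all apart: the Frzb intervals with 2 (103 to 195) and with 3 or more (171 to 362) overlapped, and Foxf2 was at 27.7 CPM with 1 and 24.6 CPM with 2 before 135 CPM with 3 or more. The last group holds only 16 cells, and its median depth was 6823.5 UMIs against 6468 in cells with 1 Foxf1 UMI. Its values rest on few UMIs for some genes: 3 of Dcn, 2 of Tshz2, 4 of Bmp4 and 3 of Cited1.

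**Figure D4:**
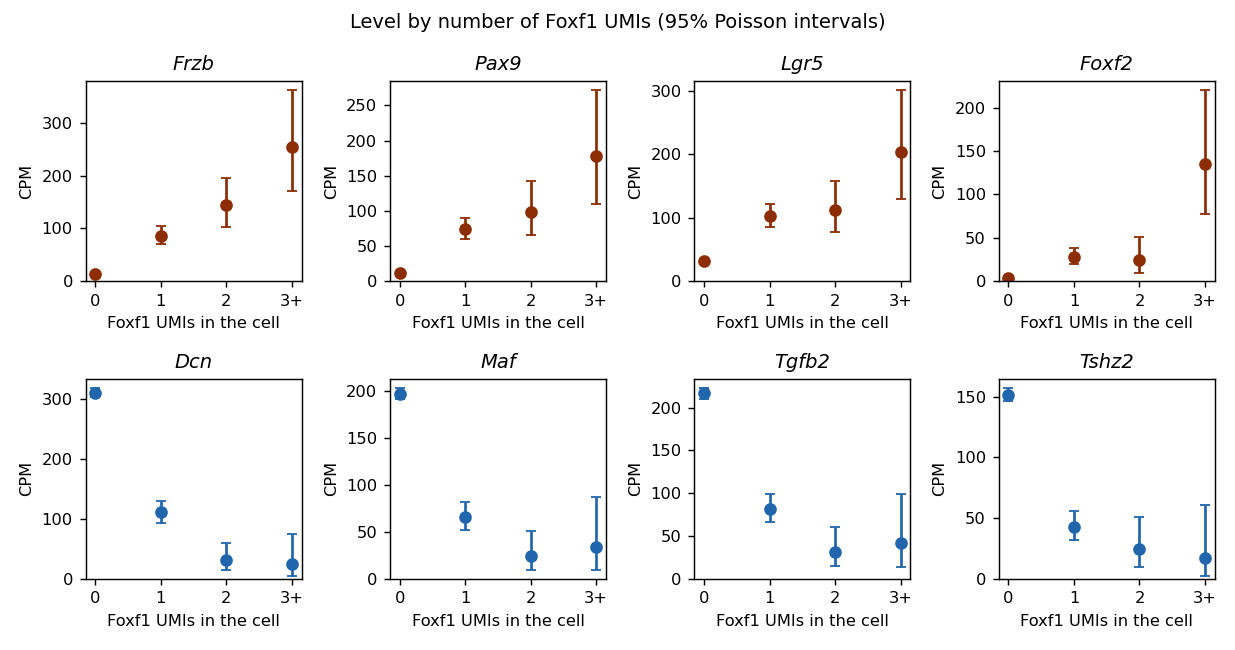
Level (CPM, with 95% Poisson intervals) of selected genes in cells with 0, 1, 2 and 3 or more Foxf1 UMIs (3398, 178, 40 and 16 cells). Frzb, Pax9 and Lgr5 are highest at 3 or more, and Dcn and Tshz2 are highest at 0.

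The same co-detection can be given from the side of the other gene, which adds no separate evidence, with each cell thinned to 3000 UMIs. Foxf1 was detected in 29.0% (21.4 to 37.6) of 131 cells with Pax9 and in 2.70% of those without it. The share was 21.5% of 149 cells with Frzb against 2.89% without, and 16.7% of 270 cells with Lgr5 against 2.60%. For Dcn it was 1.16% of 1552 cells against 5.65%, and for Maf 1.21% of 1407 cells against 5.31%. Aldh1a2, which makes retinoic acid, gave no such split, with 3.60% of 1251 cells against 3.72% of those without it.

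Among the other forkhead genes, Foxf2 stood out. Foxf2, the closest relative of Foxf1, was at 34.8 against 4.06 CPM, from 58 UMIs in 43 members and 82 UMIs in 64 of the Foxf1-zero cells (8.58-fold, 6.02 to 12.2). It lay below the 50 CPM limit, and was at 0.222 CPM in parotid mesenchyme. In thinned cells Foxf1 was detected in 32.7% (20.3 to 47.1) of the 52 cells with Foxf2 and in 3.24% of those without. Foxf2 itself was in 9.48% of thinned members, 0.908% of thinned Foxf1-zero cells and 6 of 129 thinned skeletal-muscle-like cells (4.65%), so it was not limited to the members. Foxc2, on the same chromosome, was at 24.0 against 9.40 CPM (2.55-fold, 1.77 to 3.61), and Foxp2 at 55.2 against 28.8 CPM (1.92-fold). Foxp2 was the only forkhead gene of the 3 that reached 50 CPM to pass the size rule. Of all genes tested, 2.84% passed it upward.

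Fendrr was counted 7 times in Foxf1-positive cells (4.20 CPM) and 5 times in Foxf1-zero cells (0.247 CPM), a ratio of 17.0 with a counting interval of 4.64 to 67.8. Foxl1, next to Foxc2, had 9 UMIs at 5.40 against 0.990 CPM. Of the flanking genes, Fbxo31, Cox4i1, Emc8 and Mthfsd had ratios of 0.859 to 1.18. Foxc2, a neighbour too with its start at chr8:121116171, had the ratio of 2.55 given above. The forkhead list had a median log2 ratio of 0.36 over 8 genes of at least 20 CPM, against 0.01 over all 6101 such genes.

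Hedgehog pathway genes lay on both sides. Gas1, a coreceptor for hedgehog ligands, was at 154 against 336 CPM (0.457-fold, 0.402 to 0.517), and Cdon, another coreceptor, at 6.60 against 20.4 CPM (0.324-fold, 0.160 to 0.585). Smo, the signal transducer, was at 73.8 against 70.9 CPM and Gli3, a transcriptional effector, at 59.4 against 50.6 CPM. The response gene Ptch1 was at 13.8 against 5.10 CPM, from 23 UMIs in the members (2.71-fold, 1.64 to 4.29), whereas Gli1 had only 4 UMIs, at 2.40 against 4.11 CPM, too few to read. Of the 3 hedgehog genes at 50 CPM, 0 were higher and 1 lower by the size rule, beside 2.84% and 3.25% of all genes tested.

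Over all gated cells, with the mix of clusters not held equal, genes that pattern the pharyngeal arches tended to be higher. Of 22 of these transcription factors at 20 CPM or more, 18 had a ratio above 1, against 3125 of all 6101 genes at that level (51.2%), and their median log2 ratio was 0.42. Of the 15 at 50 CPM, Pax9, Lhx8, Prrx2 (151 against 70.0 CPM) and Dlx5 (89.4 against 47.5 CPM) passed the size rule upward. Meox1, at 27.6 against 74.6 CPM, passed it downward. Of all genes tested, 2.84% passed the rule upward and 3.25% downward. Tbx22, below the limit, was at 22.2 against 8.66 CPM (2.56-fold, 1.75 to 3.67).

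Several factors that are abundant in this mesenchyme stayed within 1.5-fold. Barx1 was at 459 against 351 CPM, Pitx1 at 673 against 592 CPM, Osr1 at 466 against 443 CPM, Gsc at 170.5 against 163 CPM and Prrx1 at 477 against 479 CPM. Pax9, Lhx8 and Meox1 differed by more than any of these.

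Over all gated cells, signalling genes differed in several pathways. Of 28 gene lists, signalling and other, 11 had a median at least 0.3 from that of all genes in those cells. Within clusters 2 lists did, so most list medians given here were nearer to that of all genes once clusters were held equal. The counts past the size rule come from few genes per list, beside 2.84% higher and 3.25% lower among all genes tested. Among WNT genes, 3 of 5 at 50 CPM were higher: Frzb, Lgr5 and Dkk2 (68.4 against 42.4 CPM), the first and last of which are known inhibitors. The response genes Nkd1 (2.37-fold) and Axin2 (2.09-fold) lay below the limit and above 1, and the list's median log2 ratio was 0.69 over 9 genes. Among BMP genes, 4 of 6 were higher, namely the ligand Bmp4, the target genes Id1 (244 against 149 CPM) and Id2 (329.5 against 169.6 CPM), and Bambi, a pseudoreceptor (86.4 against 50.8 CPM). Outside the gate Bambi was at 1.14-fold (0.840 to 1.52), whereas Bmp4 was at 1.93-fold (1.42 to 2.59) and Id2 at 1.68-fold (1.48 to 1.90). Within the gate Bmp7 was lower, at 12.6 against 25.2 CPM (0.499-fold), below the limit. The median of the BMP list was 0.51 over 10 genes.

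Among FGF genes, the feedback inhibitor Dusp6 was the 1 of 5 that was higher (64.2 against 33.4 CPM), beside 2.84% of all genes tested. Il17rd (39.0 against 19.6 CPM) and Etv5 (1.91-fold) were on the same side below the limit. Outside the gate both lay on the other side of 1, at 0.626-fold (0.310 to 1.16) and 0.674-fold (0.292 to 1.38). Fgf10, a mesenchymal ligand that acts on gland epithelium, was at 46.2 against 68.5 CPM (0.675-fold). Retinoic acid genes were mixed: Aldh1a2 (258 against 168 CPM) and Crabp1 (52.8 against 34.5 CPM) were higher and the receptor gene Rarb (57.0 against 87.6 CPM) lower, with a median of -0.09 over 9 genes. For Aldh1a2 the ratio outside the gate was 1.05 (0.909 to 1.20), and Foxf1 detection did not split by Aldh1a2, as given above. Aldh1a2 itself was in 40.9% of thinned members (34.6 to 47.6) and 35.0% of thinned Foxf1-zero cells (33.4 to 36.6). Meis2, a homeobox factor, was higher (308 against 186 CPM).

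Matrix genes leaned lower over all gated cells, with median log2 ratios of -0.31 over 26 interstitial and -0.56 over 5 basement membrane genes. Of 19 interstitial matrix genes at 50 CPM, 0 were higher and 3 lower, beside 2.84% and 3.25% of all genes tested. The 3 were Dcn, Col6a1 (31.2 against 76.0 CPM) and Col5a2. Col3a1, used by the rule, was lower as well. The basement membrane genes Nid2 (20.4 against 58.1 CPM) and Nid1 (13.2 against 35.0 CPM) and Lamb1 (153 against 226 CPM) were on the same side, Nid2 past the size rule. Genes of insulin-like growth factors and their binding proteins had a median of 0.02 over 9. Of these, 3 passed the rule downward, Igfbp3 (85.8 against 257 CPM), Igfbp5 and Igfbp7, beside 3.25% of all genes tested. Among angiogenic and haematopoietic factors, the stromal chemokine Cxcl12 was lower (139 against 315 CPM) and Angptl1 higher (134 against 77.3 CPM). Among adhesion genes, Vcam1 was lower (50.4 against 122 CPM), as was Ncam1, and Cdh2 higher (119 against 73.2 CPM). Outside the gate Cdh2 was at 1.10-fold (0.891 to 1.34), whereas Vcam1 was at 0.493-fold (0.315 to 0.744) and Ncam1 at 0.606-fold (0.368 to 0.953).

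Of 10 genes listed as submandibular mesenchyme genes, 5 were lower (Maf, Cxcl13, Gpm6b, Igfbp7 and Igfbp5) and Asb4 was higher (111 against 66.6 CPM). That list was drawn from earlier results on these libraries, so it is no independent evidence. Its median log2 ratio was -0.60. Of all genes tested, 3.25% were lower and 2.84% higher by the size rule. No gene of the 11 listed as parotid mesenchyme genes reached 20 CPM, and the list summed to 37.2 against 22.4 CPM.

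Axon guidance and neurotrophic genes went in both directions. Slit2, Ntf3 (115 against 53.4 CPM, a neurotrophin), Nrp1 (82.8 against 39.1 CPM, a receptor for semaphorins and VEGF) and Epha4 (214 against 114 CPM, an ephrin receptor) were higher. Outside the gate Ntf3 was at 1.13-fold (0.827 to 1.52) and Slit2 at 1.70-fold (1.01 to 2.79). Robo2, a receptor for Slit proteins, was lower (28.2 against 72.8 CPM), as was Efnb2, with a median of 0.12 over 13 genes. Col2a1, the cartilage collagen, was at 47.4 against 14.5 CPM (3.27-fold, 2.52 to 4.21) and Col9a1 at 43.2 against 19.9 CPM. With the 4 members of the chondrogenic-like cluster and all other classes left out, the log2 ratio of Col2a1 was 1.45 instead of 1.71, and within clusters it was 0.15.

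**Figure D5:**
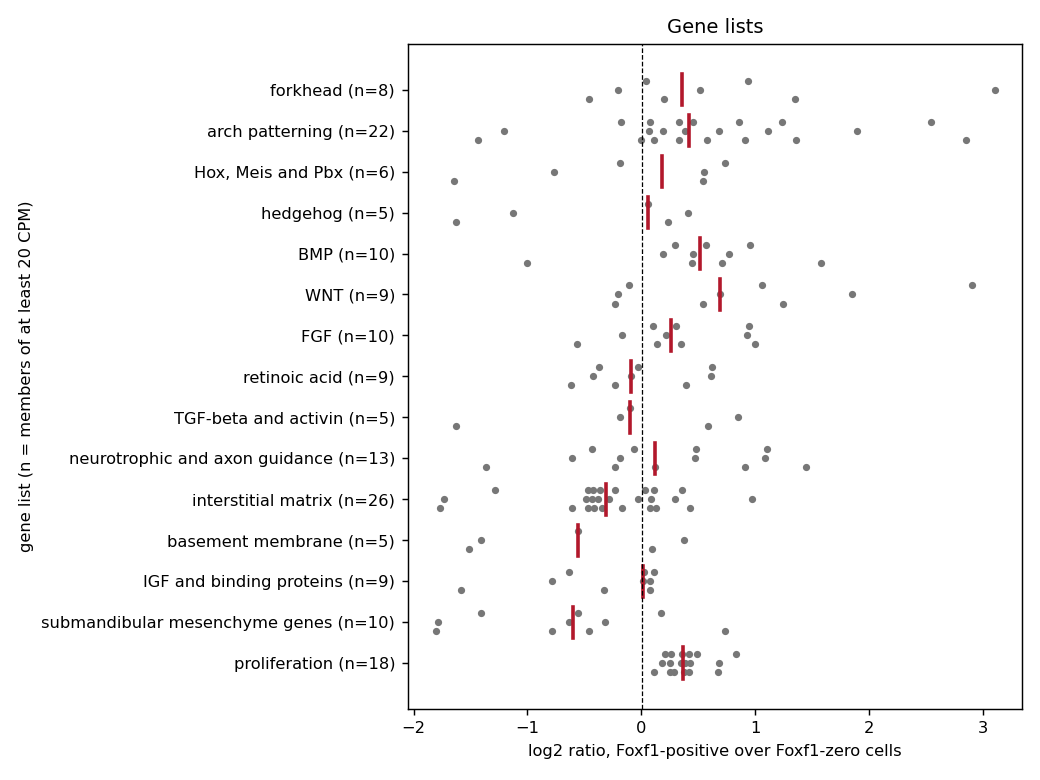
Log2 ratio of Foxf1-positive over Foxf1-zero cells for the members of at least 20 CPM of each gene list, with the median of each list marked and the median of all such genes as a dashed line. WNT and BMP lists lie to the right of that line and submandibular mesenchyme genes to the left. All gated cells were used, and the mix of clusters was not held equal.

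Cell-cycle genes were slightly higher, with all 18 proliferation genes of at least 20 CPM above 1, beside 51.2% of all genes at that level. Their median was 0.37, and 3 of 18 passed the rule, beside 2.84% of all genes tested: Rrm2, Ccnb1 and Ccne2, the last of which was lower instead in cells outside the gate (log2 ratio -0.70). A cycling marker was detected after thinning in 38.4% of members (32.1 to 45.0) and 32.9% of Foxf1-zero cells (31.3 to 34.6). Within clusters the median of the proliferation list was on the other side of 0, at -0.087. Ier2, an immediate early gene, was at 768 against 416 CPM, and the imprinted RNA Meg3 at 3061 against 4924 CPM. The 7 haemoglobin genes were lower by the size rule, but the median log2 ratio of the erythroid list was 0.30 where a Pdgfra plus Col3a1 sum of at least 5 was required, and their part in the other values was not tested.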

How the data were processed

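Single-cell RNA libraries of 4 pooled tissues (submandibular and parotid, epithelium and mesenchyme) were used, 1 per group. The authors deposited whole-number UMI counts per gene and barcode, not normalized; Cell Ranger 2.1.1 and the mouse genome build mm10 come from the submitters' processing notes. All members are from the submandibular mesenchyme library of 4971 barcodes and 32036980 UMIs. It shared 34 barcode sequences with parotid mesenchyme, 25 with submandibular epithelium and 10 with parotid epithelium, and no barcode was removed for that.

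The members and the gene lists were chosen with earlier results of these data known. Quality limits were a minimum of 500 genes and a maximum of 10% mitochondrial UMIs per barcode. No doublet caller was run; leaving out the top 5% of cells by UMIs, or cells with marker UMIs of another class, stood in as alternatives. Clusters came from 2000 variable genes without Foxf1, 30 principal components, 15 neighbours and Leiden resolution 0.8 (scanpy 1.11.5, igraph 0.11.9, anndata 0.12.19, scikit-learn 1.9.0), and were named from at least 3 markers, each in at least 25% of cells.

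UMIs were summed per set and given as CPM with exact Poisson intervals. For ratios the interval was the exact conditional binomial one, and for shares that of Clopper and Pearson, all at 95% (SciPy 1.17.1). A share of 0 is given the limit that 3 counts allow. No gene was tested for significance, since there is 1 library. Genes of at least 50 CPM and 1.5-fold were counted, and list medians use genes of at least 20 CPM. The genes named are the 12 highest and 12 lowest ratios among these, leaving out genes used by the rule, haemoglobin, mitochondrial, ribosomal, sex-linked and immediate early genes, gene models and likely free RNA, plus up to 4 members per list with the largest change. The forkhead, hedgehog, retinoic acid and arch patterning lists and the neighbours of Foxf1 could be named in full. Id1, Dkk2, Col5a2, Efnb2, Epha4 and Asb4 fell outside this rule, passed the size rule and were chosen after their values were seen. Thinned values drew 3000 UMIs per cell. TMM scaling used edgeR 4.0.16 in R 4.3.3. Coordinates are from GENCODE annotation of GRCm38 and promoter windows from RefSeq. A few genes of the lists are not reported here.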

Additional observations from a re-analysis of the deposited data

How the results depend on the processing

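No paired analysis was possible because each tissue has 1 library, with no replicate numbers to share. The counts of 91 higher and 104 lower genes were 155 and 191 when cells were thinned to 3000 UMIs, 276 and 273 with at least 2 Foxf1 UMIs, 27 and 26 within clusters, 151 and 183 without cycling cells, 23 and 40 at 2-fold, 240 and 290 at a 20 CPM limit and 34 and 46 at 100 CPM. Within depth bins the lower count was 59 and the higher count 64. With TMM scaling they were 85 and 113. Some settings held fewer UMIs than the 1666019 of all members. There were 402800 in 56 cells with at least 2 Foxf1 UMIs, and 689504 in 117 cells without cycling-marker UMIs. Thinning lowered the UMIs per cell as well. The size rule takes no account of counting error, which is larger with fewer UMIs. Higher counts under these settings therefore do not show a larger contrast. Of the 276 higher genes, 73 were among the 91. The share of 6.44% was 8.92% under the stricter quality limits, 3.68% thinned and 4.403% at a gate of 5. Lists at least 0.3 from the median of all genes numbered 11, and 20 with at least 2 Foxf1 UMIs and 2 within clusters. Among genes past the size rule and lists, the values that changed sign were the proliferation list within clusters (-0.087), the erythroid list at a gate of 5 (0.30), where Hbb-bs was 0.25, Hba-a1 0.30, Hba-a2 0.20 and Hbb-bt 0.56, and Hbb-bt with mesenchymal-like clusters only (0.0053) and without the top 5% of UMIs (0.11). In cells outside the gate, a comparison added once the values were known, Ccne2 was -0.70, Hba-a2 0.038 and Hbb-bt 0.062. Counting also named genes not past the rule, 29 of 149 changed sign outside the gate and 2 to 16 under the other alternatives that changed any. The causes were not tested. Of 61 named genes past the size rule, 5 changed sign under any alternative.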

Other observations

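A list of 22 cholesterol synthesis genes was written after the values had been seen. Of 9 at 50 CPM, 4 were higher in Foxf1-positive cells: Msmo1 (107 against 59.9 CPM), Fdps (147 against 82.2 CPM), Idi1 (51.0 against 28.8 CPM) and Hmgcs1 (152 against 94.6 CPM). None was lower, and of 18 genes at 20 CPM, 14 had a ratio above 1 (51.2% of all 6101 genes at that level did, and 2.84% of all genes tested passed the size rule upward), with a median log2 ratio of 0.51. The nuclear receptor genes Nr2f1 (104 against 193 CPM) and Nr2f2 (205 against 379 CPM), also picked after the values had been seen, were both lower.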
